A study of Mus musculus with 18 samples.

Results

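The 89 nuclear genes described here encode subunits of the mitochondrial respiratory chain and ATP synthase, among 26149 genes counted in 18 mouse macrophage libraries. They were chosen by symbol: names that begin with Ndufa, Ndufb, Ndufc, Ndufs, Ndufv, Uqcr, Cox4, Cox5, Cox6, Cox7, Cox8 or Atp5, together with Sdha, Sdhb, Sdhc, Sdhd and Cycs, without the Ndufaf assembly factors and without Cox7a1 and Cox8b. By complex there were 40 genes of complex I, 4 of complex II, 8 of complex III, 19 of complex IV, 17 of complex V and Cycs. Ndufa4 and its paralogue Ndufa4l2 were counted with complex IV. Of the 89 genes, 86 are annotated as protein-coding and 3 as transcribed pseudogenes (Cox7c-ps1, Ndufa11b and Ndufs5-ps).

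The respiratory chain passes electrons from NADH and succinate through complexes I to IV to oxygen, and the proton gradient that builds up across the inner mitochondrial membrane drives ATP synthase, complex V. Complex I takes electrons from NADH, complex II is also the succinate dehydrogenase of the citric acid cycle, complex III hands electrons to cytochrome c, and complex IV reduces oxygen. In macrophages, oxidative metabolism is known to accompany alternative activation, and succinate oxidation and complex I are known to shape the inflammatory response. PPARg is a lipid-sensing nuclear receptor that drives adipocyte differentiation and lipid handling in macrophages.

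Macrophages of 2 kinds were profiled from mice with either wild-type (WT) PPARg or a T166A mutant that has alanine for a threonine. Bone marrow-derived macrophages (BMDM) from C57BL/6J or PPARg T166A mice had been differentiated in M-CSF at 50 ng per ml for 7 days (3 libraries per genotype). Each genotype had replicates 1 and 2 in batch B1, and its replicate 3 in batch B2. Skin wound macrophages were the fraction of a dorsal skin digest that bound anti-F4/80 beads, taken 6 days after injury (6 libraries per genotype). The labels name no promoter or Cre that would limit the mutation to macrophages. The labels give neither the age nor the sex of the mice, and do not say whether each library came from a separate mouse, so the p-values measure the spread between these libraries. Their extraction note speaks of adipocytes for every library. Counts per gene cannot show which PPARg allele a library carries.

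The BMDM libraries held 40063547 to 44146322 gene counts each and the skin libraries 29356293 to 38772912. All values are counts per 1000000 gene counts (CPM), scaled by the trimmed mean of M values (TMM). Macrophage genes were abundant in both sources: the summed level of 8 macrophage markers was 29297 to 44478 CPM in BMDM and 8200 to 11836 CPM in skin. The library labelled BMDM T166A replicate 3 stood apart, with 411 CPM over 7 fibroblast markers against 4.24 to 43.9 CPM in the WT libraries. The skin fraction held RNA of other cells, with 5980 to 11101 CPM over the same fibroblast markers.

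Binding sites of nuclear respiratory factor 1 (NRF1) and of ETS factors such as GABP are known from the promoters of respiratory genes. RefSeq promoters (build GRCm38.p6) were at hand for 69 of the 89 genes, and the 250 bases before the start of each were searched on both strands. The NRF1 motif, GCGCA and GCGC parted by any 1 base, was present in 13 of the 69 genes (18.8%) and in 4.23% of all 27025 genes with a promoter. The ETS motif CCGGAAG was present in 12 of the 69 (17.4%) and in 7.83% of all genes, and the SP1 motif GGGCGG in 26 (37.7%) against 35.4%. The repeat bound by PPAR, AGGTCA and AGGTCA parted by any 1 base, was present in none of the 69 and in 0.0407% of all genes. The upstream sequences of the complex II genes Sdha (chr13:74350241-74350490, minus strand), Sdhb (chr4:140961021-140961270, plus strand) and Sdhd (chr9:50603850-50604099, minus strand) are printed. They were chosen because complex II was the complex whose summed TMM-scaled CPM did not overlap between the genotypes in skin. Cox6a1 (chr5:115348959-115349208, minus strand) is printed as an abundant complex IV gene with both motifs. Capitals mark matches to the NRF1 and ETS motifs on either strand, and no capitals means that neither motif is in the 250 bases.
Sdha: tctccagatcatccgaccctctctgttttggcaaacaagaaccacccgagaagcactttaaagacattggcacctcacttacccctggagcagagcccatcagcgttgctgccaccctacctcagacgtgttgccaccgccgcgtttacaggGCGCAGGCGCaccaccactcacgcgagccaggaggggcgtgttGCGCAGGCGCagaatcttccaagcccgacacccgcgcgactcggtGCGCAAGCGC
Sdhb: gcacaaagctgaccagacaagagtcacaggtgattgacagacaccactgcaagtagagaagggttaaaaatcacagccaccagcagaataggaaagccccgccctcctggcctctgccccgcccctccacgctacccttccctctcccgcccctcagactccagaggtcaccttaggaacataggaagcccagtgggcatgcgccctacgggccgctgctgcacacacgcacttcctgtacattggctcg
Sdhd: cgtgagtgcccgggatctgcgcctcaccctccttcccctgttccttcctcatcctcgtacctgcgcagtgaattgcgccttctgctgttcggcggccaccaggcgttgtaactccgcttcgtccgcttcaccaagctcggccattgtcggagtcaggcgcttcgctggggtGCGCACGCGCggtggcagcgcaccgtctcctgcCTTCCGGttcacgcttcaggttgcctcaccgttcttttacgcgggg
Cox6a1: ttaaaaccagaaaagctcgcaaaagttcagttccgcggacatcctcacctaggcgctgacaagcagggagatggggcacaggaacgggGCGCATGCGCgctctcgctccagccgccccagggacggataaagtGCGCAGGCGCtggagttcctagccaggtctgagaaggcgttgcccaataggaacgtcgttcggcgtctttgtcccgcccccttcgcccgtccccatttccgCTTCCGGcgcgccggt
The Sdha sequence holds 3 NRF1 matches, Sdhd holds 1 NRF1 and 1 ETS match, Cox6a1 holds 2 NRF1 matches and 1 ETS match, and Sdhb holds neither motif. A match describes letters and does not show a bound site.

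Levels were compared between genes per kilobase of transcript. In WT skin macrophages the highest levels belonged to Atp5b, the catalytic beta subunit of ATP synthase, with 242 CPM per kb, to Cox4i1, the widespread form of complex IV subunit 4, with 207 CPM per kb, and to Cox6a1 with 169 CPM per kb. In WT BMDM Cox4i1 came first with 656 CPM per kb and Cox6a1 had 432 CPM per kb. The 89 genes together took 0.846 to 1.03% of gene counts in WT BMDM and 0.311 to 0.354% in WT skin libraries, which were separate experiments with different mixes of cells. Cycs, the mobile electron carrier, had 14.1 CPM per kb in WT BMDM and 14.9 CPM per kb in WT skin.

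In BMDM none of the 84 genes tested passed the threshold, an adjusted p under 0.05 in edgeR's quasi-likelihood test with batch in the model. Across all 13137 genes tested the share called was 0.0685%, so a count of 0 is near the background. At an unadjusted p under 0.05 there were 34 lower genes (40.5%) and none higher, against 6.32% lower among all genes. This count was 20 without T166A replicate 1 (7.84% of all genes in either direction), 21 without WT replicate 2 (8.82%) and 15 with no batch term (7.07%), with none higher in these fits. With a block for replicate number, which pairs the libraries, it was 43 with none higher, beside 1942 of all 13137 genes in either direction. None of the 84 was called in the block fit. The log2 fold change (T166A over WT) was negative for 82 of 84 genes (97.6%), against 52.9% of all genes, with a median of -0.32 against -0.02 over all genes. The groups did not overlap, with every T166A library below every WT library, for 14 genes (16.7%), against 6.93% of all genes. Neutrophil markers moved with genotype too: 5 of 7 tested were lower at an unadjusted p under 0.05 and none was called by edgeR, with a median log2 fold change of -0.73 (-0.57 with each library's trend of counts with transcript length removed). Their sums overlapped, from 57.7 to 94.8 CPM in WT and from 28.9 to 60.8 CPM in T166A, and Ly6g, a defining neutrophil gene, was at or near 0 in all of these libraries. The part of the neutrophil markers in the result was not tested.

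Complex III had the member with the smallest p in BMDM. Uqcr10, a small subunit of complex III, was measured at 57.1, 63.8 and 67.6 CPM in WT and at 35.7, 38.9 and 42.7 CPM in T166A. The T166A libraries were all lower, and the log2 fold change was -0.69 ± 0.13 (SE, edgeR adjusted p = 0.132). Uqcr11, another small subunit, was measured at 55.6, 67.5 and 61.3 CPM in WT and 30.2, 40.1 and 50 CPM in T166A, again without overlap (log2 fold change -0.64, edgeR adjusted p = 0.234). Uqcrh, the acidic hinge protein that contacts cytochrome c, overlapped between the genotypes, with 120, 163 and 210 CPM against 94.6, 121 and 202 CPM.

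Among complex I genes, Ndufa2, an accessory subunit, had 79.6, 103 and 121 CPM in WT and 46.9, 52.9 and 86.7 CPM in T166A (log2 fold change -0.74 ± 0.15, edgeR adjusted p = 0.170). One T166A library, replicate 3, lay above the lowest WT library. Ndufs6, an accessory subunit that binds zinc, had 34.9, 40.7 and 34.7 CPM in WT and 19.4, 22.2 and 27 CPM in T166A, with no overlap (log2 fold change -0.70 ± 0.16, edgeR adjusted p = 0.180). Ndufv3, an accessory subunit of the NADH-binding module, had 45.7, 46.9 and 52.3 CPM in WT and 31.6, 31.5 and 37.8 CPM in T166A (log2 fold change -0.52, edgeR adjusted p = 0.185). Ndufs1 and the low-level paralogue Ndufb4c (1.1 CPM in WT) were the genes with positive values, 0.04 and 0.49.

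Values of complex V and complex IV genes lay below 0 as well. Atp5e, the epsilon subunit of the F1 head, had 129, 150 and 186 CPM in WT and 72.3, 95.8 and 141 CPM in T166A, with overlap (log2 fold change -0.62). Atp5k, the membrane-bound subunit e, had 33.8, 28.9 and 30.6 CPM in WT and 16.6, 19.4 and 26.7 CPM in T166A, without overlap (log2 fold change -0.60). Cox8a, a small complex IV subunit, had 168, 188 and 180 CPM in WT and 123, 143 and 135 CPM in T166A, also without overlap (log2 fold change -0.42). Complex II had the values nearest to 0: its 4 log2 fold changes ran from -0.17 for Sdhc to -0.04 for Sdha, with a median of -0.12, against medians of -0.35 for complex I, -0.31 for complex III, -0.37 for complex IV and -0.30 for complex V. Levels of Cycs were 40.8, 49.2 and 42.5 CPM in WT and 31.4, 29.5 and 48.9 CPM in T166A, which overlapped.

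**Figure D1:**
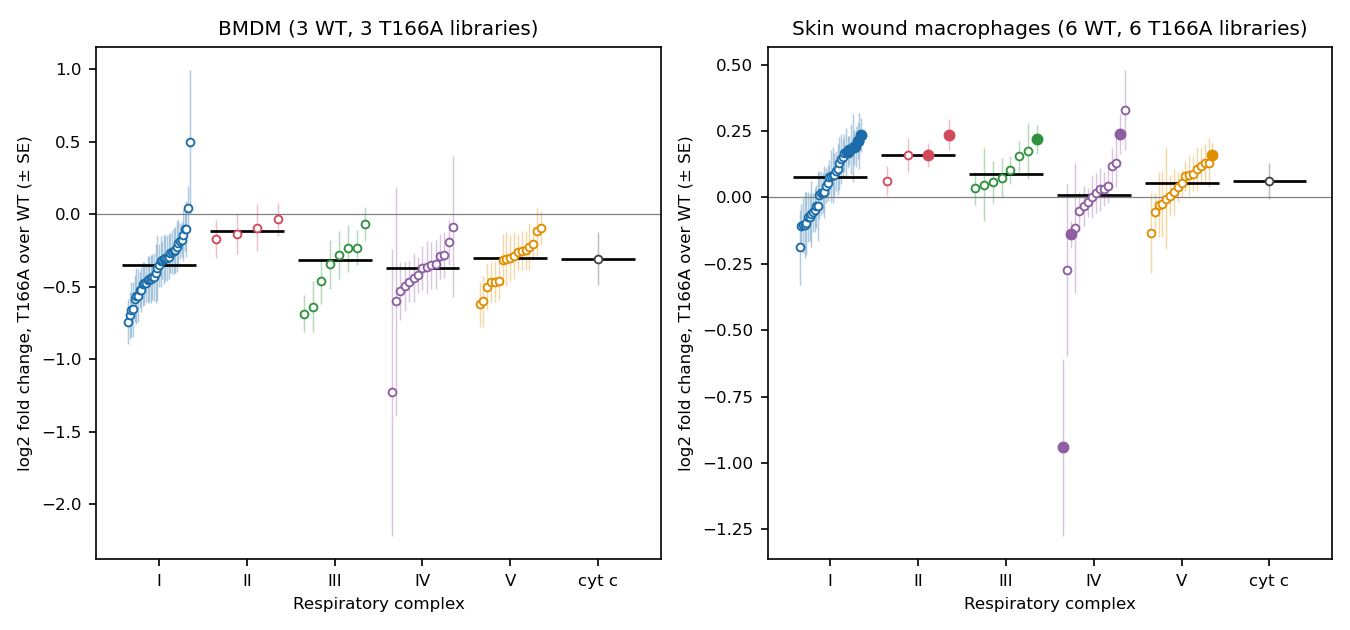
The log2 fold change (T166A over WT) of each tested gene by complex, with its standard error, for BMDM (left) and skin wound macrophages (right). Filled points passed the edgeR threshold (0 genes in BMDM, 10 higher and 2 lower in skin), black lines are medians, and nearly all BMDM points lie below 0 while complexes II and III lie above 0 in skin.

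Other programs read different numbers of calls from the same BMDM counts: DESeq2 called 9 genes lower (1.1% of all genes were called lower), limma-voom 3 (0.213%) and edgeR without a filter on low counts 2 (0.122%). Uqcr10, Ndufa2 and Ndufs6 were the genes called by limma-voom, and DESeq2 called these and Atp5e, Cox8a, Ndufa6, Ndufa13, Ndufv3 and Uqcr11. The choice of Ndufa6 and Ndufa13 was made after their values were seen.

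Transcript length moved with the BMDM result. These transcripts are short, with a median of 731.5 bases against 2621 bases for all genes tested in skin, and 55 of the 84 tested in BMDM are no longer than 1000 bases. Across 12996 BMDM genes the fold change increased with length (Spearman correlation across genes 0.41, and genes are not independent replicates). The median over all genes was -0.26 for transcripts up to 500 bases and 0.21 above 4000 bases. Within classes of like length the respiratory genes lay lower still: -0.60 against -0.26 up to 500 bases, -0.35 against -0.19 from there to 1000 bases, -0.21 against -0.15 up to 2000 bases and -0.19 against -0.02 up to 4000 bases. In this order the classes held 9, 46, 20 and 8 respiratory genes, so the first and last medians rest on few genes.

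With each library's length trend removed the median in BMDM was -0.15, 73 of 84 values were negative (53.1% of all genes), 18 genes were lower and 0 higher at an unadjusted p under 0.05 (9% of all genes in either direction) and none was called (0.129% of all genes). Ndufa2 then stood at -0.53, Ndufs6 at -0.48 and Uqcr10 at -0.47. Complex II transcripts were long, with a median of 2065.5 bases. The complex II median was then -0.00, against -0.18 for complex I, -0.13 for complex III, -0.18 for complex IV and -0.13 for complex V. With a block for replicate number and the length trend removed, 17 respiratory genes were lower and 0 higher at an unadjusted p under 0.05. Over all 13137 genes 1337 passed in either direction in that fit. The trend went with single libraries. The Spearman correlation of transcript length with centred log2 CPM was 0.06, -0.33 and -0.42 in the WT libraries and 0.38, 0.35 and -0.16 in the T166A libraries, and the median centred level of the respiratory genes was -0.04, 0.22 and 0.34 in WT and -0.49, -0.27 and 0.21 in T166A. The libraries with the lowest respiratory gene levels, T166A replicates 1 and 2, were those with the highest relative counts for long transcripts.

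**Figure D2:**
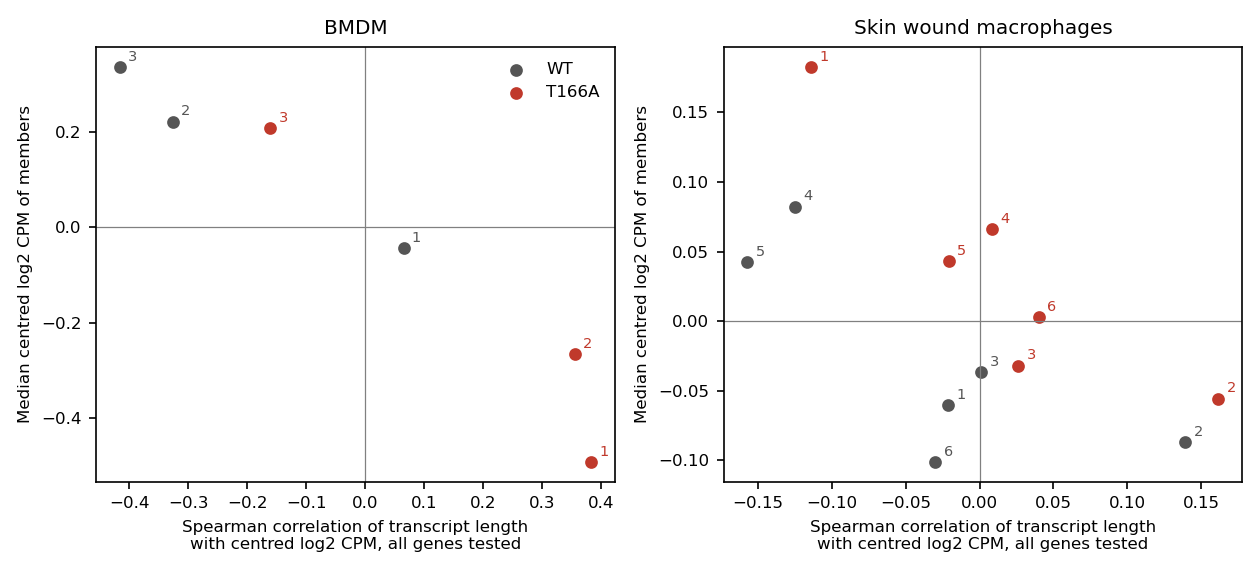
Each point is a library, with its replicate number: the horizontal axis is the Spearman correlation of transcript length with log2 CPM centred per gene, the vertical axis the median centred log2 CPM of the respiratory genes. In BMDM (left) the libraries run from WT replicate 3 at the upper left (-0.42, 0.34) to T166A replicate 1 at the lower right (0.38, -0.49), while skin libraries (right) span a narrower range.

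By batch, the median log2 fold change in B1 was -0.46, with 81 of 84 values negative. With the length trend removed in B1 it was -0.23, with 24 genes lower and 0 higher at an unadjusted p under 0.05 (13.5% of all genes in either direction) and no call. In B2, with 1 library per genotype and no test, the median log2 ratio was -0.11 (63 of 84 negative), against -0.06 for all genes. T166A replicate 3, the library with fibroblast RNA, is in B2, and leaving it out with batch in the model leaves WT replicate 3 alone in B2, which gives in effect the fit of B1 again. Leaving out WT replicate 2 gave -0.21, the value nearest to 0.

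In skin wound macrophages 10 respiratory genes rose and 2 fell in T166A, of 84 tested (14.3%; edgeR, adjusted p under 0.05). Across all 15473 genes tested 25.9% were called, 12.7% higher and 13.2% lower, so the share called was below that of all genes and is no result about these genes. Those that rose included Ndufv1, Ndufv2, Ndufs1 and Ndufa9 of complex I, Sdha and Sdhb of complex II, Uqcrc2 of complex III, Ndufa4 of complex IV and Atp5a1 of complex V, and the rises were of 1.12- to 1.18-fold. Those that fell were Cox6a2 and Cox7a2l of complex IV. The median log2 fold change was 0.06 against 0.01 for all genes, with 60 of 84 positive (71.4% against 51.6%).

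Complex I held 5 of the rises. Ndufv1, the flavoprotein that takes electrons from NADH (mm10 chromosome 19, 4007499 to 4012755), was at 31.2, 34.1 and 38.3 CPM (lowest, median and highest of 6 libraries) in WT and at 37.2, 40.1 and 45.1 CPM in T166A. The highest WT library lay above the lowest T166A library, and the log2 fold change was 0.23 ± 0.06 (edgeR adjusted p = 0.0089). Ndufs1, the largest iron-sulfur subunit of complex I, was at 29, 33.5 and 35.9 CPM in WT and 33.2, 38.3 and 40.1 CPM in T166A, with overlap (log2 fold change 0.21, edgeR adjusted p = 0.0222). Ndufv2, the iron-sulfur partner of Ndufv1, rose by 0.19 on the log2 scale and Ndufa9, an accessory subunit of the quinone module, by 0.17. Both were named after their values were seen. Every T166A library was above every WT library for Ndufa9 (24.4 to 27.1 CPM in WT, 27.8 to 30.8 CPM in T166A).

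Sorted by role, a grouping made after the values were seen and given without a test, 4 of the 7 core subunits of complex I rose and 1 of 30 accessory subunits, beside 12.7% of all genes (10.6% of those from 1000 to 2000 bases). The core median was 0.19 and the accessory median 0.03, and core transcripts were longer, with a median of 1046 bases against 718 bases. With the length trend removed the medians were 0.19 and 0.04 and the counts were again 4 and 1. Ndufs7 and Ndufs8, core subunits that carry iron-sulfur clusters, did not pass the test: their log2 fold changes were 0.10 and -0.06. Ndufa3 (-0.19) and Ndufb7 (-0.11), accessory subunits, had the smallest p among negative values of complex I and did not pass either (edgeR adjusted p = 0.366 and 0.374).

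In complex II all 4 fold changes were positive. Sdhb, the iron-sulfur subunit of succinate dehydrogenase (chromosome 4, 140961271 to 140979198), was at 36.4, 37.5 and 40.5 CPM in WT and 41.6, 43.9 and 48.7 CPM in T166A, with no overlap (log2 fold change 0.24 ± 0.06, edgeR adjusted p = 0.00392). Sdha, the flavoprotein that oxidises succinate (chromosome 13, 74322255 to 74350240), was at 108, 113 and 114 CPM in WT and 119, 126 and 128 CPM in T166A, also with no overlap (0.16 ± 0.04, edgeR adjusted p = 0.00859). The membrane anchors Sdhd and Sdhc had log2 fold changes of 0.16 and 0.06 and did not pass the test (edgeR adjusted p = 0.0659 and 0.425). The summed level of the 4 genes ran from 239 to 256 CPM in WT and from 267 to 279 CPM in T166A, so the genotypes did not overlap. None of the other complexes separated in this TMM-scaled sum. Complex I summed to 706 to 783 CPM in WT and 739 to 859 CPM in T166A, and complex IV to 653 to 753 and 636 to 778 CPM. As a percent of gene counts, without this scaling, complexes I and III separated as well. Complex I took 0.0673 to 0.0765% in WT and 0.0774 to 0.0883% in T166A. Complex III took 0.0276 to 0.0318% in WT and 0.0326 to 0.0358% in T166A. Complexes IV and V overlapped on that measure too.

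**Figure D3:**
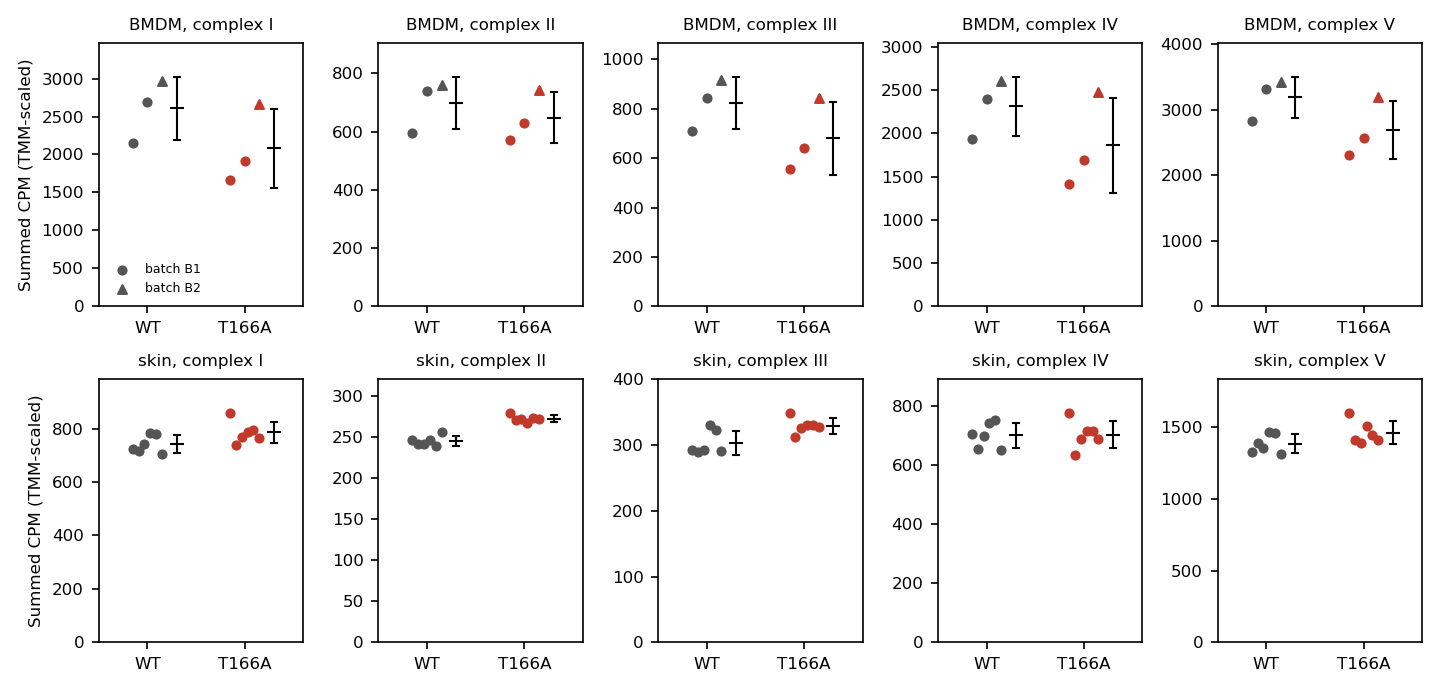
Summed CPM of the genes of each complex in every library, for BMDM (top, with batch B1 as circles and B2 as triangles) and skin (bottom). Short bars are the mean ± SD, axes start at 0, and in skin the complex II sums of the T166A libraries (267 to 279 CPM) lie above all WT sums (239 to 256 CPM).

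In complex III 1 of 8 genes rose, and all 8 values were positive. Uqcrc2, a core protein of complex III (chromosome 7, 120635189 to 120659523), was at 50.8, 53 and 55 CPM in WT and 55, 61.5 and 66.4 CPM in T166A, with the lowest T166A library just above the highest WT library (0.22 ± 0.06, edgeR adjusted p = 0.00511). Uqcrfs1, the Rieske iron-sulfur protein, had a log2 fold change of 0.15 that did not pass (edgeR adjusted p = 0.0618). Uqcr10, which had the smallest p in BMDM, had a log2 fold change of 0.17 with an edgeR adjusted p of 0.246 in skin.

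Complex IV moved in both directions. Ndufa4 (chromosome 6, 11900372 to 11907450), first assigned to complex I and now placed in complex IV, was at 21.8, 25.3 and 26.9 CPM in WT and 26.1, 28.8 and 34.9 CPM in T166A, with overlap (0.24 ± 0.08, edgeR adjusted p = 0.0227). Cox6a2, the heart and skeletal muscle form of subunit 6a (chromosome 7, 128205435 to 128206366), was at 0.911, 1.17 and 1.38 CPM in WT and 0.206, 0.629 and 1.16 CPM in T166A, with overlap (-0.94 ± 0.33, edgeR adjusted p = 0.0401). Cox7a2l, counted here as a factor associated with complex IV, was at 80.1, 87.1 and 91.1 CPM in WT and 76.3, 76.8 and 85.9 CPM in T166A (-0.14 ± 0.05, edgeR adjusted p = 0.0438). Cox4i1 had the same level in both genotypes within its spread (159 ± 8.89 CPM in WT and 157 ± 10.8 CPM in T166A, SD, n = 6; log2 fold change -0.02), and Cox5b, a nuclear-encoded peripheral subunit, had a log2 fold change of 0.00.

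Tissue-restricted and induced forms were at low levels. Per length, Cox6a2 made up 1.01 ± 0.135% of Cox6a1 and Cox6a2 together in WT skin and 0.511 ± 0.289% in T166A skin (SD, n = 6). Ndufa4l2, a hypoxia-induced paralogue of Ndufa4, was at 5.35 ± 1.2 CPM in WT skin and 6.73 ± 1.23 CPM in T166A skin (edgeR adjusted p = 0.116) and had no counts in any BMDM library. Cox4i2, the lung and hypoxia form of subunit 4, was at 1.28 ± 0.290 and 1.19 ± 0.307 CPM in skin. Cox6b2, known from testis, was at 1.13 ± 0.530 and 0.935 ± 0.285 CPM. Cox7b2 and Cox8c were at or near 0 in all libraries and were not tested. The skin fraction held RNA of other cells, and which cells gave the counts of these forms was not tested.

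In complex V 1 of 17 genes rose. Atp5a1, the alpha subunit of the F1 head, was at 289, 305 and 317 CPM in WT and 328, 338 and 352 CPM in T166A, without overlap (0.16 ± 0.04, edgeR adjusted p = 0.00999). Its catalytic partner Atp5b was at 431, 462 and 489 CPM in WT and 463, 474 and 524 CPM in T166A and did not pass (0.05, edgeR adjusted p = 0.468). Atp5d, the delta subunit of the central stalk, had a log2 fold change of 0.12, Atp5mpl, a small membrane subunit, -0.13, and Atp5g2, a gene for the c-ring, -0.05, none of which passed. Cycs averaged 46.7 ± 3.88 CPM in WT against 48.8 ± 4.38 CPM in T166A (SD, n = 6; 0.06, edgeR adjusted p = 0.545).

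**Figure D4:**
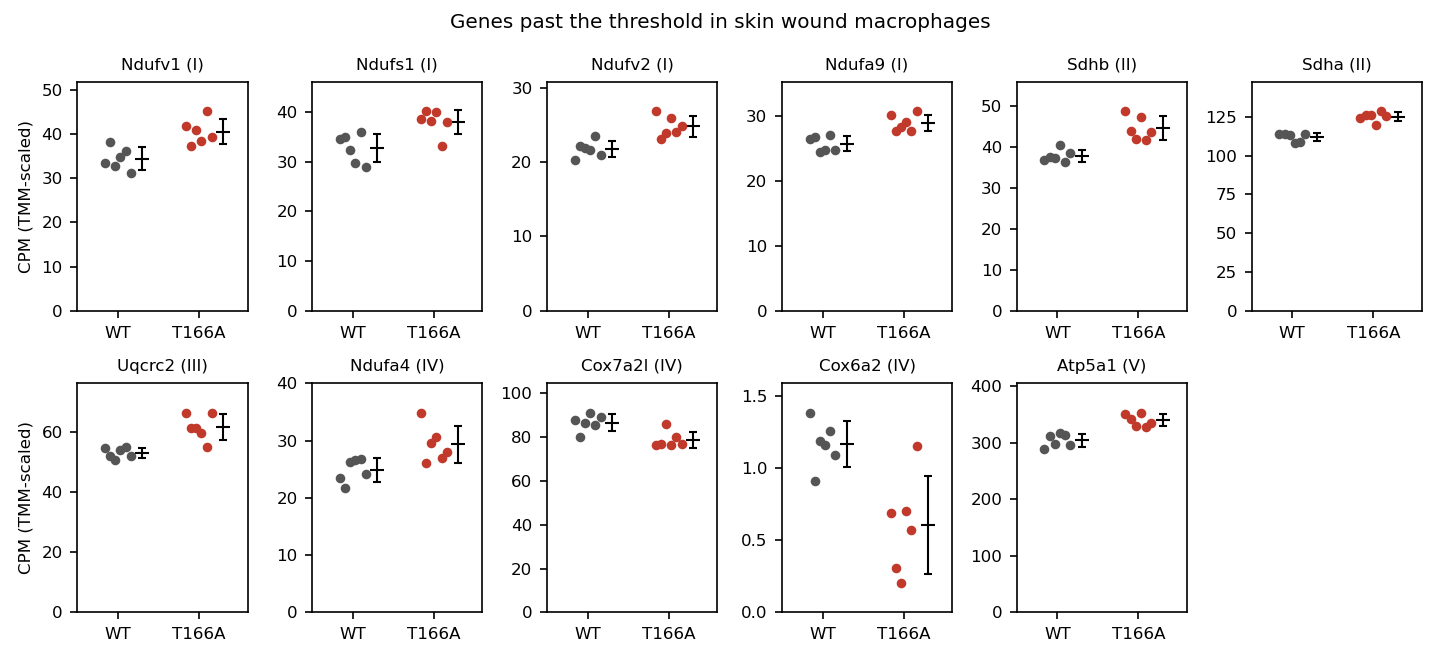
TMM-scaled CPM of 11 genes past the edgeR threshold in skin, with 1 point per library, mean ± SD as bars and axes that start at 0. The rises are of 1.12- to 1.18-fold, the libraries of Ndufa9, Sdha, Sdhb, Uqcrc2 and Atp5a1 do not overlap between the genotypes, and Cox6a2 stays under 1.5 CPM in all of them.

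Of the 10 rises, 5 had no overlap between the genotypes (Ndufa9, Sdha, Sdhb, Uqcrc2 and Atp5a1), which is 5.95% of the genes tested, against 5.43% of all genes. Among transcripts above 1000 bases 8 of 28 rose, and among those up to 1000 bases 2 of 55, a difference that was not tested. Over all genes 2.02% were called higher up to 500 bases, 8.25% up to 1000, 10.6% up to 2000, 12.7% up to 4000 and 17.5% above that. In skin the fold change hardly went with length (Spearman correlation 0.05 across 15305 genes), and all 10 rises stayed past the threshold with the length trend removed (11.9% of all genes higher).

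**Figure D5:**
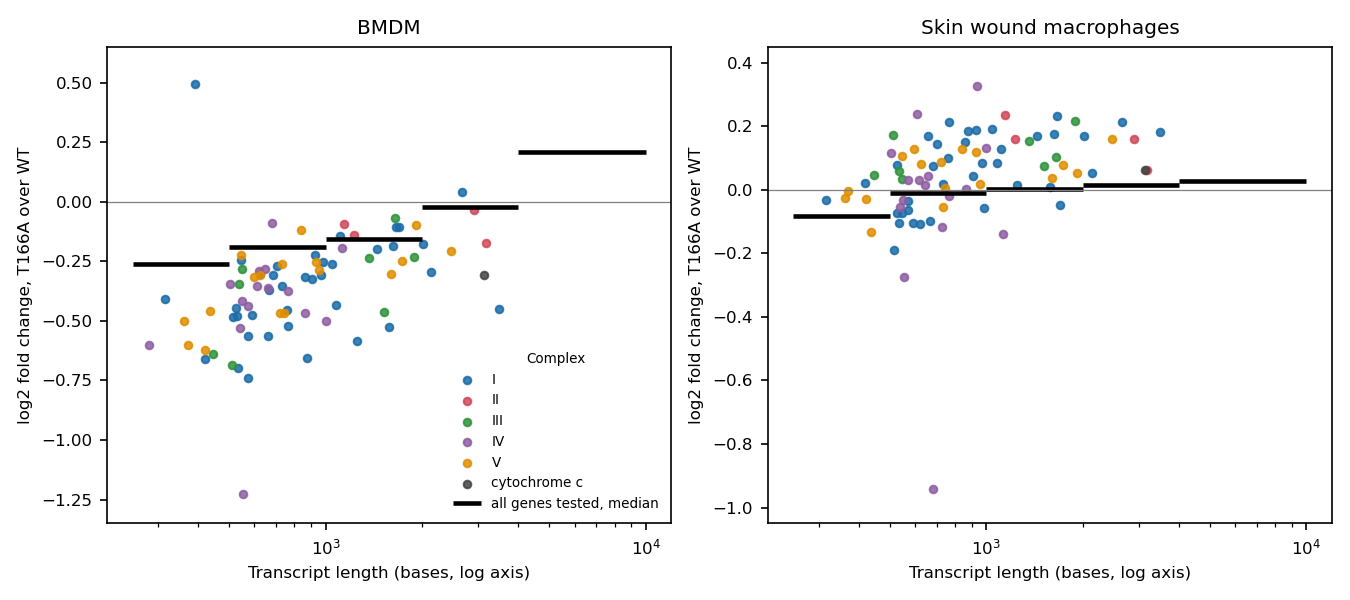
The log2 fold change of each tested respiratory gene against its transcript length (log axis), with the complex as colour, for BMDM (left) and skin (right). Black bars are the medians of all genes tested in 5 length classes, the last of which has no upper limit: they climb from -0.26 to 0.21 in BMDM and stay between -0.08 and 0.03 in skin.

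Leaving out single libraries ended some of these calls. The calls of Sdha, Sdhb, Uqcrc2, Ndufv1 and Atp5a1 held without each of the 12 libraries. Ndufa4 was lost without WT replicate 2 or T166A replicate 1 (edgeR adjusted p up to 0.0713), and Ndufs1 without WT replicates 4 or 6 or T166A replicates 2 or 4 (up to 0.0627). Ndufa9 was lost without WT replicates 3, 4 or 6 or T166A replicates 1, 4 or 6 (up to 0.0915), and Ndufv2 without replicates 1, 4 or 6 of either genotype (up to 0.0823). The falls were the least stable. Cox6a2 was lost without all but WT replicate 2 and T166A replicate 6 (up to 0.0920), and Cox7a2l without all but WT replicate 2 and T166A replicates 3 and 5 (up to 0.104).

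Markers of other cell types moved with genotype in skin. Of 11 adipocyte markers tested 10 rose, among them Adipoq from 0.377 to 1.51 CPM in WT to 6.68 to 13.6 CPM in T166A, while Lep was near 0 in both. The adipocyte sum, most of it Fabp4, overlapped (486 to 688 and 528 to 844 CPM). Of 7 brown adipocyte markers 5 rose, with sums of 6.95 to 17.7 CPM in WT and 30.8 to 70 CPM in T166A, and Ucp1, the uncoupling protein of brown fat, was at 2.27 ± 0.562 and 22.7 ± 11.3 CPM. Cox8b, a brown fat and muscle form of complex IV subunit 8 that was left out of the 89 genes, rose from 0.405 ± 0.213 to 2.21 ± 0.549 CPM, and Cox7a1 did not pass (1.07 ± 0.491 and 1.45 ± 0.429 CPM, edgeR adjusted p = 0.326).

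Skeletal muscle markers fell in 10 of 12 genes, with sums of 61.9 to 94.9 CPM in WT and 28.8 to 40.5 CPM in T166A, and Acta1, skeletal alpha-actin, fell from 39.9 ± 4.95 to 15.9 ± 2.78 CPM. Macrophage markers fell in 6 of 8, with sums of 9502 to 11836 CPM in WT and 8200 to 8944 CPM in T166A, and endothelial markers rose in 3 of 6 (1046 to 1464 and 1335 to 1944 CPM). Among 5 mast cell markers the protease genes Mcpt4, Cma1 and Tpsb2 fell and Kit, a receptor also found on other cells, rose from 52.9 ± 4.46 to 86.6 ± 13.4 CPM. The mast cell sum, most of it Kit, did not overlap (59.4 to 72.7 CPM in WT and 76.0 to 109 CPM in T166A). Of 4 neutrophil markers tested S100a8 and S100a9 fell, with a median log2 fold change of -0.77 over the 4 and sums that overlapped (28.2 to 103 and 25.7 to 50.6 CPM). The part of the macrophage, endothelial, mast cell and neutrophil markers in the result was not tested. In bulk samples fewer cells of a type and less RNA per cell cannot be told apart. With an adipocyte score as a covariate no respiratory gene was called (4.9% of all genes were called by edgeR). The median was 0.30 and 76 of 84 values were positive, against 50.6% of all genes. At an unadjusted p under 0.05, 24 genes were higher and 1 lower, beside 2847 of all 15473 genes in either direction. With a skeletal muscle score none was called either (3.12% of all genes), and the median was 0.03. There were 2 higher and 1 lower at an unadjusted p under 0.05, beside 2528 of all 15473 genes in either direction. Both scores separated the genotypes without overlap, with a squared correlation with genotype of 0.882 and 0.866, so these fits cannot tell score and genotype apart. With keratinocyte and fibroblast scores, which overlapped, 10 genes were higher and 1 lower (28.9% of all genes called).

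Neighbouring mitochondrial genes were read from lists kept apart from the 89. Of 17 genes of pyruvate dehydrogenase and the citric acid cycle 12 rose in skin and none fell (12.7% of all genes were called higher and 13.2% lower), with a median of 0.19. Idh3a, the catalytic subunit of isocitrate dehydrogenase, was at 20.7, 23.1 and 28.7 CPM in WT and 31, 34.5 and 37.1 CPM in T166A (0.52 ± 0.08, edgeR adjusted p = 1.93e-05). Its libraries did not overlap between the genotypes. Of 53 assembly factors tested 7 rose, a share near that of all genes, and 1 fell. Ndufaf4, which helps to build complex I, rose by 0.49 and Atpaf2, which chaperones the F1 alpha subunit, by 0.30 on the log2 scale. Of 22 regulators of mitochondrial biogenesis 2 rose, a share below that of all genes: Ppargc1a, the PGC-1 alpha coactivator that is also on the brown adipocyte list, from 0.718 ± 0.578 to 2.64 ± 1.0 CPM, and Tfam, which maintains and transcribes mitochondrial DNA, from 10.7 ± 1.33 to 14.4 ± 1.52 CPM. Of 14 inner membrane carriers 4 rose, Ucp1 and the citrate carrier Slc25a1 among them, and 1 fell, the phosphate carrier Slc25a3. None of the genes on these lists was called in BMDM by edgeR (0.0685% of all genes). At an unadjusted p under 0.05 there were 8 lower and 1 higher of 54 assembly factors, and 2 and 1 of 20 regulators. There were 1 and 0 of 17 genes of the citric acid cycle list, and 4 and 0 of 12 carriers. Over all genes 6.32% were lower, and 1686 of 13137 passed in either direction. The 13 subunits encoded by mitochondrial DNA are not analysed here.

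The genotype effect differed between the sources for 31 of the 86 genes tested when all libraries were fitted together in edgeR (36.0%), all higher in skin than in BMDM, and none was lower at an unadjusted p under 0.05 either. Among 16586 genes 6.1% were higher and 8.17% lower. By complex the 31 were 17 of 39 in complex I, 0 of 4 in complex II, 3 of 8 in complex III, 6 of 17 in complex IV and 5 of 17 in complex V. All 4 complex II genes were higher at an unadjusted p under 0.05, which 4985 of all 16586 genes reached in either direction. For 28 of the 31 the BMDM effect was negative and the skin effect positive. The difference was 0.90 ± 0.18 for Uqcr10 (-0.69 in BMDM and 0.17 in skin, edgeR adjusted p = 0.00238), 0.49 ± 0.10 for Uqcrc2 (-0.23 and 0.22, edgeR adjusted p = 0.00249), 0.74 ± 0.16 for Ndufa2 (-0.74 and -0.03, edgeR adjusted p = 0.00402), 0.40 ± 0.09 for Atp5a1 (-0.21 and 0.16, edgeR adjusted p = 0.00439) and 0.57 ± 0.13 for Ndufv3 (-0.52 and 0.01, edgeR adjusted p = 0.00778). The 31 include Cox4i2, whose BMDM counts were at or near 0 and which is not read further, and both Ndufs5 and Ndufs5-ps.

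This count moved with the fit. It was 14 with the length trend removed (3.96% of all genes higher), 24 with another scaling (4.6%), 3 when the separate edgeR fits were subtracted (Uqcr10, Ndufa2 and Ndufb3; 0.874%), and 1 when their length trends were removed as well (0.701%). Uqcr10 was the gene called in that last comparison, with a difference of 0.68 and an adjusted p of 0.0279 from the separate edgeR fits. Ndufb3, an accessory subunit of complex I, was named after its value was seen. The 14 calls with the length trend removed include Cox4i2 and Ndufs5-ps. Ndufs5-ps has no transcript length here, so its values were not corrected, while Ndufs5 lost its call in that fit. The joint fit used 1 spread per gene for both sources, while the separate fits estimated it in each. The biological coefficient of variation, a measure of spread between libraries, was 0.28 in BMDM (3 residual degrees of freedom) and 0.13 in skin (10). The joint fit can therefore understate the error of the BMDM effect, and how far this moved the count was not tested. Skin and BMDM also differed in length trend, tissue and mix of cells, so the source and these differences cannot be told apart.

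Some counts could include reads of other genes. Ndufs5-ps held 1.01 to 1.13 times the counts of Ndufs5 in every library, so their values are close to 1 measurement. The counts of genes given here still include each of them as a separate gene. The spans of 23 of the 89 genes overlap another named gene, among them Ndufv2 with Ankrd12, Uqcrc2 with Pdzd9, Atp5a1 with Haus1 and Cox6a2 with Itgad, an integrin gene. Neither the strand setting nor the treatment of reads with several matches is given in the sources used here.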

How the data were processed

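RNA was sequenced in 18 mouse libraries (BMDM n = 3 and skin n = 6 per genotype), grouped by their labels. The authors deposited raw counts per RefSeq transcript, and the submitters' processing notes name HISAT2 2.2.1, featureCounts, cutadapt 4.4, FastQC 0.12.1 and mm10. Transcripts were matched to genes through RefSeq or GENCODE, and 117 in each table were not matched and left out (0.514% of counts in BMDM and 0.187% in skin). Each gene was represented by the transcript with the highest CPM summed over both tables. Depths are given in the report, and the number of libraries limits the precision. No pair of libraries was a duplicate.

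Tests used edgeR 4.0.16 in R 4.3.3 (TMM, filterByExpr with minimum counts of 10 and 15 in total, robust quasi-likelihood F test, Benjamini-Hochberg over all genes tested, threshold 0.05), BMDM with batch and genotype, skin with genotype. The difference between sources was an interaction over all libraries. Alternatives were RLE size factors, other filters, DESeq2 1.42.0, limma-voom (limma 3.58.1), summed transcripts, a replicate block, BMDM with no batch term or B1 alone, removal of each library's length trend (a spline of centred log2 CPM on log length with 5 degrees of freedom, as an offset), each library left out, and covariates for cell type scores (mean log2 CPM, prior count of 2). Added after seeing these files were 3 combinations: batch B1 alone, the adipocyte score, and the separate fits, each with the length trend removed. Genes without a transcript length, Ndufs5-ps among them, were not corrected for the length trend. The procedures were tested on simulated data.

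The genes, lists and tests were chosen with earlier results of these data known. Named genes were the most abundant of each complex, those with the smallest p in each direction by source and complex, the 5 smallest p for the difference, tissue-restricted forms, and the smallest p of each other list. After removal of group means, same-numbered WT and T166A libraries in BMDM correlated at 0.20, 0.11 and 0.19. Batch is labelled there, and the numbers were taken to pair the BMDM libraries. The main BMDM test had batch but not these pairs in the model, and the replicate block was fitted as an alternative. In skin the correlations ran from -0.05 to 0.09 and the numbers were not taken as pairs. A few results are not reported here.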

Additional observations from a re-analysis of the deposited data

Results flagged for a closer look

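In skin, 5 of 82 groups of values had a library far from the others of its group, against about 1 in 20 groups by chance. WT replicate 4 had 9.16 CPM of Atp5k, with the others at 5.07 to 6.49 CPM. T166A replicate 1 had 524 CPM of Atp5b (others 463 to 477 CPM). T166A replicate 5 had 97.2 CPM of Atp5d (others 72.2 to 77.7 CPM) and 33.2 CPM of Ndufs1 (others 38.0 to 40.1 CPM). T166A replicate 3 had 85.9 CPM of Cox7a2l (others 76.3 to 79.9 CPM).

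The genotype effect differed between skin and BMDM by the edgeR interaction test for Ndufa2 (difference in log2 fold change 0.74), Uqcr10 (0.90), Uqcrc2 (0.49), Atp5a1 (0.40) and Ndufv3 (0.57), the 5 named by p. With the length trend removed these differences were 0.57, 0.73, 0.39, 0.34 and 0.45. From separate edgeR fits Uqcrc2, Atp5a1 and Ndufv3 did not pass the threshold. Ndufa2 did not pass from separate edgeR fits with the length trend removed (adjusted p = 0.0834). Uqcr10 passed in every alternative.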

How the results depend on the processing

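In BMDM the count of genes called lower was 0 with edgeR, 2 without a filter, 9 with DESeq2 and 3 with limma-voom, and none was called higher under any alternative run. Leaving out each library kept both BMDM counts at 0 (0 to 0), with a median of -0.46 to -0.21. In skin the count higher was 10, and it ran from 7 to 11 when each library was left out. It was 8 without a filter and 9 with the replicate block and length trend removed. It was 0 with the adipocyte score (alone or with the length trend removed) and 0 with the skeletal muscle score. The count lower, 2, was 1 with the length trend removed, without a filter, with the stricter filter, with summed transcripts, with the replicate block and length trend removed, and with keratinocyte and fibroblast scores. It was 0 with the adipocyte score (alone or with the length trend removed) and with the skeletal muscle score, and ran from 0 to 2 when each library was left out. The skin median, 0.06, was 0.30 with the adipocyte score, 0.29 with that and the length trend removed, and 0.03 to 0.08 when each library was left out. The number of genes with a different effect in the sources, 31, was 14 with the length trend removed, 3 from separate fits and 1 from separate fits with the length trend removed; the cause was not tested. Over all genes this split was 1012 higher and 1355 lower, and 763 higher and 1627 lower with RLE size factors. With the replicate block 10 genes were higher and 2 lower in skin and 0 in BMDM, where 6 of 6 libraries correlated best with their own number (1 of 12 in skin). None of 313 recomputed values of the called genes that are among the named genes changed sign, and 85 lost the threshold. Other called genes were not in this count, which leaves out part of the 31 differences between sources. In skin it leaves out Ndufa9, which lost its call in 11 of 25 alternatives, and Ndufv2, in 10 of 25. The called genes were picked from the same libraries that the alternatives refit, so a kept sign is weak support.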
